A study of Mus musculus with 25 samples.

Results

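Ribosome biogenesis was followed through 39 genes whose products transcribe ribosomal RNA, modify and cut it, or assemble it into ribosomal subunits. The genes were picked by name, with earlier results on the same arrays known, and each was read from its brightest probe set, judged by the mean of the 25 arrays. Of the 39 genes, 38 were measured, out of 18193 genes on the arrays. The exception was Mrto4, whose only probe set also names other genes and which is not analysed here. By their mean over all arrays, all 38 lay above the dimmest 40% of genes.

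Ribosome production starts in the nucleolus, where RNA polymerase I transcribes the ribosomal DNA repeats into a long precursor RNA. Small nucleolar ribonucleoproteins guide the methylation and pseudouridylation of that precursor, and successive assembly factors cut it and load it with ribosomal proteins to give the small and the large subunit. The kinase complex mTORC1, which the proteins encoded by Tsc1 and Tsc2 hold back and which rapamycin inhibits, is known to promote this production, in part through the polymerase I initiation factor encoded by Rrn3.

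Messenger RNA came from 3 immortalized lines of mouse embryonic fibroblasts. The Tsc2-null line (Tsc2-/- p53-/-) and the wild-type line (Tsc2+/+ p53-/-) were littermate derived, whereas the Tsc1-null line (Tsc1-/-) has functional p53 and was immortalized by serial passage under the 3T3 protocol. All plates were deprived of serum for 24 h. In each null line rapamycin at 20 nM was present for the last 2, 6, 12 or 24 h (2 arrays per time and line), and DMSO vehicle plates were taken from the Tsc2-null, the Tsc1-null and the wild-type line (3 arrays each). The times are those of the sample titles, and the descriptions of the Tsc1-null plates titled 24 h and 12 h give 14 h and 11 h instead. Which is right cannot be told from the labels, and it touches each Tsc1-null value at those times and each comparison that uses one. No rapamycin-treated wild-type plate was analysed here. Each genotype was 1 line, so genotype cannot be told apart from the line that carries it, and loss of Tsc1 not from the retained p53. Replicates were separate plates of a line, so p-values measure the spread between plates.

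Levels are log2 values with the SD over arrays, differences are log2 differences between group means with the standard error (SE) of limma's fit, and p-values are adjusted by Benjamini-Hochberg over all 18193 genes. A gene is said to be called, or to have risen, fallen or changed, where the adjusted p is below 0.05. Array medians ran from 6.26 to 6.41, and precision is limited by how many arrays each group has. Of 10 fibroblast markers, 1 lay below the median gene in the Tsc2-null line and none did in the Tsc1-null or the wild-type line, and the log2 of their summed level was 16.1 to 16.5, 16.2 to 16.5 and 16.6 over the arrays of these lines. The marker below the median was Thy1, which averaged 6.83 in Tsc2-null and 7.64 in Tsc1-null vehicle cells, against 10.79 in wild-type cells, and Pdgfrb averaged 9.84, 11.43 and 12.31 in the same order. Of 6 epithelial markers, 3, 5 and 4 lay below the median gene, with summed levels of 10.2 to 11.1, 9.57 to 9.90 and 10.5 to 10.6. Among them Cdh1 averaged 8.04 in Tsc2-null and 3.95 in Tsc1-null vehicle cells, against 3.85 in wild-type cells, and Krt18 averaged 9.80 after 24 h of rapamycin in Tsc2-null cells, against 7.70 under vehicle. Of 5 neural markers, 4, 4 and 2 lay below the median gene (9.09 to 9.29, 9.45 to 9.77 and 10.5 to 10.6), with Sox2 at 6.23 in Tsc1-null vehicle cells, against 3.34 in wild-type cells. Of 4 endothelial, 5 blood cell, 4 skeletal muscle and 2 adipocyte markers, 3, 4, 3 and 2 lay below the median gene in each line. The part of these markers in the results was not tested. Tsc1 mRNA stood at 6.92, 7.02 and 7.38 in Tsc1-null vehicle cells, against 8.33, 8.15 and 8.11 in wild-type cells, a difference of -1.08 ± 0.12 (SE, adjusted p = 6.42e-08). Tsc2 mRNA stood at 9.48, 9.54 and 9.46 in Tsc2-null vehicle cells and 9.74, 9.67 and 9.69 in wild-type cells, a difference of -0.21 ± 0.08 (SE, adjusted p = 0.042). No source used here says where its probe set lies relative to the deleted part.

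The promoters of 4 members are shown because they hold the E-box CACGTG, the core motif bound by basic helix-loop-helix leucine zipper factors such as Myc, and belong to genes that changed in different directions below. Each is 300 bases from RefSeq (GRCm38.p6), from 250 before to 50 after the start that its promoter table uses, on the coding strand, with CACGTG in capitals. Ltv1 lies on the minus strand at chr10:13193088-13193387, Rrn3 on the plus strand at chr16:13780449-13780748, Utp20 on the minus strand at chr10:88826765-88827064 and Nle1 on the minus strand at chr11:82908346-82908645. The start used is the first base of the annotated gene for Ltv1, Rrn3 and Utp20, and lies 51 bases inside the annotated gene for Nle1.
Ltv1: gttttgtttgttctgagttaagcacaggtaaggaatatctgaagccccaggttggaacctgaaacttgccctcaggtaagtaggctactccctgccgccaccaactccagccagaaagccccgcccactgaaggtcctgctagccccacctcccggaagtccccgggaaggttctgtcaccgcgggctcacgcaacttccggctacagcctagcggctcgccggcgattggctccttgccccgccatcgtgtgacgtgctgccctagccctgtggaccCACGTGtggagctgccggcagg
Rrn3: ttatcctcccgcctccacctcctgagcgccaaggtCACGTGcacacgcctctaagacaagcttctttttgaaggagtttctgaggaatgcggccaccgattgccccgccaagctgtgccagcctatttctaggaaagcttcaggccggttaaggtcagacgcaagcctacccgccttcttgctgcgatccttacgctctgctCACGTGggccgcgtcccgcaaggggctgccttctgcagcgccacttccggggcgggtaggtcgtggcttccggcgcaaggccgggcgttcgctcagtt
Utp20: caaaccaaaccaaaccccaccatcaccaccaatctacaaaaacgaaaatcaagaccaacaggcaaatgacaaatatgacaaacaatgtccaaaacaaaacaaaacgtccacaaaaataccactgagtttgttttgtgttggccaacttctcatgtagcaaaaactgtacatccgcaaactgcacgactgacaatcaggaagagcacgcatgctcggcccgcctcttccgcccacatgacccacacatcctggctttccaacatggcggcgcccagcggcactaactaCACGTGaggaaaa
Nle1: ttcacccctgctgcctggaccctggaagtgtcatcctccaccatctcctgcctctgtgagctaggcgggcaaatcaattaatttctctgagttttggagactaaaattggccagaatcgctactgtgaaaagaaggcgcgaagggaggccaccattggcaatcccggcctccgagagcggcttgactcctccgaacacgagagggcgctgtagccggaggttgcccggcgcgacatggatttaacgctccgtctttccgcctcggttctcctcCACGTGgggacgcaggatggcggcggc
In Rrn3 both matches stand before the start used for its window, at -215 and -48, whereas the single matches of Ltv1, Utp20 and Nle1 follow theirs, at 29, 38 and 24. On either strand CACGTG was found in 7 of the 32 members with a listed window (21.9%), which besides these 4 were Nop2, Pes1 and Wdr43, and in 8.09% of the windows of all 27025 listed genes. The related letters CACGCG were in 31.2% of member windows against 10.5% of all windows, the GC box GGGCGG in 75.0% against 38.2%, and the palindrome TGCGCA in 15.6% against 8.79%. CCAAT stood in 34.4% of member windows and 41.1% of all windows, TATAAA in 9.38% and 15.7%, and AAGATGG in 3.12% and 7.28%. These shares are descriptions of letters in a fixed window, and GGGCGG and CACGCG can share an end letter. Each motif more frequent in member windows holds the letters CG, and none of the less frequent ones does. The listed genes were not matched to the members for base composition or expression, and the part of either in these shares was not tested.

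Over the 11 groups the ribosome biogenesis genes were highest in wild-type cells and lowest in null cells that had seen rapamycin for 6 h or longer. The wild-type vehicle group held the highest mean of 29 of the 38 genes, and the lowest mean fell to the Tsc2-null cells at 12 h for 15 genes and to the Tsc1-null cells at 6 h for 12. Relative to the wild-type mean, the median gene stood at -0.24 in Tsc2-null vehicle cells, -0.41 at 2 h, -0.72 at 6 h, -0.84 at 12 h and -0.71 at 24 h. In the Tsc1-null line the same medians were -0.45 under vehicle, -0.52 at 2 h, -0.86 at 6 h, -0.79 at 12 h and -0.77 at 24 h. In whole-culture RNA, less of a transcript in each cell and fewer cells that hold it cannot be told apart. The genes moved over different ranges: group means of Npm1, which encodes the histone chaperone nucleophosmin, spanned 0.53 log2 units, against 2.06 for Tcof1, which encodes treacle, a nucleolar scaffold of polymerase I transcription.

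**Figure D1:**
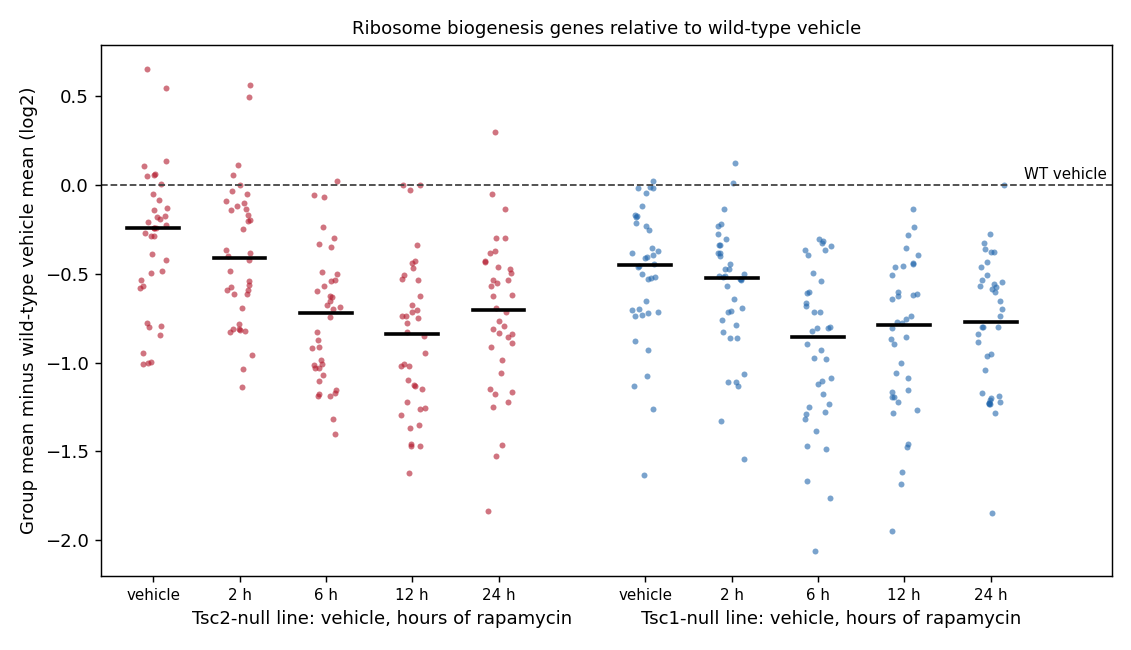
Group mean of each of 38 ribosome biogenesis genes minus its mean in wild-type vehicle cells (y axis, log2), for the vehicle and the 4 rapamycin times of the Tsc2-null line (red) and the Tsc1-null line (blue). Points are genes and black bars medians, which run from -0.24 to -0.84 in Tsc2-null cells and from -0.45 to -0.86 in Tsc1-null cells, and the dashed line is wild-type vehicle.

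The comparison of vehicle-treated null and wild-type cells asks how the genes stand where the brake on mTORC1 is missing. In Tsc2-null cells 21 of 38 ribosome biogenesis genes were lower than in wild type and 2 higher, where 21.3% and 23.6% of all genes were. The median member differed by -0.24, against -0.01 for all genes. In Tsc1-null cells 29 were lower and 0 higher, beside 20.8% and 21.3% of all genes, with a median of -0.45 against -0.02. Both comparisons share the wild-type arrays.

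Of the 6 polymerase I transcription genes, 4 were lower and 1 higher in Tsc2-null cells (21.3% and 23.6% of all genes). In Tsc1-null cells 5 were lower (20.8%). Tcof1 stood at 8.0, 7.97 and 7.98 in Tsc2-null cells and 7.33, 7.33 and 7.38 in Tsc1-null cells, against 9.07, 8.96 and 8.90 in wild-type cells. The 3 groups did not overlap, and the differences from wild type were -0.99 ± 0.08 (SE, adjusted p = 1.1e-09) and -1.63 ± 0.08 (SE, adjusted p = 2.54e-13), the Tsc1-null line being 3.10-fold lower. Ubtf, which encodes the high-mobility-group protein that keeps ribosomal DNA repeats open, was 9.0, 9.02 and 9.04 in Tsc2-null and 9.28, 9.33 and 9.34 in Tsc1-null cells, against 10.05, 10.01 and 10.01 in wild-type cells. All null arrays lay below all wild-type arrays, with differences of -1.0 ± 0.07 (SE, adjusted p = 4.24e-11) in the Tsc2-null and -0.71 ± 0.07 (SE, adjusted p = 1.56e-08) in the Tsc1-null line. Polr1e, which encodes a polymerase subunit homologous to yeast Rpa49, was 7.43, 7.53 and 7.59 in Tsc1-null cells against 8.33, 8.16 and 8.26 in wild-type cells, a difference of -0.73 ± 0.11 (SE, adjusted p = 3.92e-06), without overlap. Rrn3 went the other way in 1 line: it was 9.11, 9.14 and 9.16 in Tsc2-null cells, above all wild-type arrays at 8.61, 8.66 and 8.51, by 0.54 ± 0.07 (SE, adjusted p = 7.91e-07). Its Tsc1-null arrays, at 8.69, 8.61 and 8.55, overlapped those of wild type (0.02 ± 0.07 SE, adjusted p = 0.844), whereas the deposited ratio table gave -0.37 (adjusted p = 0.0347). Polr1b, the second-largest subunit, was 7.57, 7.63 and 7.57 in Tsc2-null cells and 7.81, 7.74 and 7.73 in Tsc1-null cells, against 7.79, 8.12 and 8.13 in wild-type cells. Its first wild-type array lay within the range of the Tsc1-null ones, and the Tsc1-null call (-0.26 ± 0.08 SE, adjusted p = 0.0138) was lost when wild-type replicate 2 (adjusted p = 0.084) or 3 (adjusted p = 0.0915) was left out.

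The 4 box C/D genes have products that belong to box C/D small nucleolar ribonucleoproteins. Of these genes, 3 were lower in the Tsc2-null line (21.3% of all genes) and 4 in the Tsc1-null line (20.8%). Fbl, the methyltransferase fibrillarin, was 11.27, 11.22 and 11.21 in Tsc2-null and 11.18, 11.26 and 11.20 in Tsc1-null cells, against 11.65, 11.72 and 11.77 in wild-type cells. The null lines lay together below wild type, with differences of -0.48 ± 0.06 and -0.50 ± 0.06 (SE, adjusted p = 5.98e-07 and 4.03e-07). Rrp9, which binds the U3 RNA, averaged 9.15 ± 0.03 in Tsc2-null cells against 9.73 ± 0.02 in wild-type cells, and Nop56, a core scaffold protein, 9.94 ± 0.10 against 10.43 ± 0.08 (SD, n = 3 each). Nop58, the partner of Nop56 in the core, was 9.51, 9.60 and 9.65 in Tsc1-null cells against 10.48, 10.45 and 10.48 in wild-type cells, 1.84-fold lower (adjusted p = 2.02e-09). In Tsc2-null cells Nop58 averaged 10.53 ± 0.06 (SD, n = 3), and the difference from wild type did not pass the test (0.06 ± 0.08 SE, adjusted p = 0.587).

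The 4 box H/ACA genes have products that convert uridine to pseudouridine or assemble that machinery. Of these genes, 3 were lower in the Tsc2-null line (21.3% of all genes) and 3 in the Tsc1-null line (20.8%). Gar1, a core protein of the complex, was 9.79, 9.76 and 9.68 in Tsc2-null cells and 9.25, 9.27 and 9.31 in Tsc1-null cells, against 10.51, 10.51 and 10.60 in wild-type cells. The 3 lines were ordered without overlap, Tsc1-null lowest, with differences from wild type of -0.80 ± 0.07 (SE, adjusted p = 7.11e-10) and -1.26 ± 0.07 (SE, adjusted p = 3.11e-13). Dkc1, the pseudouridine synthase dyskerin, was 10.19, 10.07 and 10.09 in Tsc2-null and 9.87, 9.95 and 9.84 in Tsc1-null cells, against 10.95, 10.96 and 10.98 in wild-type cells, 1.80-fold and 2.11-fold lower (adjusted p = 1.5e-08 and 3.33e-10). Nolc1, a chaperone of these particles, separated the null lines from each other: it was 9.23, 9.24 and 9.18 in Tsc1-null cells, against 10.16, 10.20 and 10.11 in Tsc2-null and 10.22, 10.07 and 10.16 in wild-type cells. Tsc1-null arrays lay alone at the bottom, -0.94 ± 0.09 (SE, adjusted p = 1.17e-08) relative to Tsc2-null cells.

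Of the 7 small subunit genes, 4 were lower and 1 higher in Tsc2-null cells (21.3% and 23.6% of all genes). In Tsc1-null cells 5 were lower (20.8%). Ltv1, which helps the small subunit mature for export, was the one that rose: 10.03, 10.10 and 10.19 in Tsc2-null cells against 9.64, 9.36 and 9.38 in wild-type cells (0.65 ± 0.09 SE, adjusted p = 1.14e-06). The Tsc2-null arrays were all above wild type, while the Tsc1-null ones, at 9.37, 9.42 and 9.53, overlapped it. Utp20, a scaffold of the early processome, was 8.80, 8.90 and 8.76 in Tsc2-null and 8.75, 8.66 and 8.58 in Tsc1-null cells, against 9.45, 9.38 and 9.34 in wild-type cells, below it in both lines with differences of -0.57 ± 0.07 and -0.72 ± 0.07 (SE, adjusted p = 2.31e-07 and 6.3e-09). Rrp12, an export factor, was 6.68, 6.63 and 6.56 in Tsc1-null cells against 7.86, 7.69 and 7.72 in wild-type cells, 2.19-fold lower (adjusted p = 5.74e-09). In Tsc2-null cells it stood at 7.68, 7.44 and 7.56, a difference from wild type that did not pass the test (-0.19 ± 0.11 SE, adjusted p = 0.154). Bysl, needed for late small subunit processing, was read in opposite directions by its probe sets between Tsc2-null and wild-type cells, with -0.27 on the brighter and 0.20 on the dimmer one, both called. Between Tsc1-null and wild-type cells the ratio table gave 0.34 for Bysl (adjusted p = 0.000257), against -0.02 ± 0.08 (SE, adjusted p = 0.884) here. The dimmer probe set was called higher in this comparison too, at 0.23.

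Of the 13 large subunit genes measured, 4 were lower in the Tsc2-null and 9 in the Tsc1-null line, beside 21.3% and 20.8% of all genes. Nle1, which acts late on the pre-large subunit, was 7.89, 7.83 and 7.83 in Tsc2-null cells against 8.87, 8.87 and 8.85 in wild-type cells, 2.01-fold lower (-1.01 ± 0.08 SE, adjusted p = 6.1e-10). Every Tsc2-null array lay below every wild-type array, and the Tsc1-null arrays, at 8.43, 8.58 and 8.46, lay between them. Ebna1bp2, an early assembly factor, was 9.84, 9.82 and 9.97 in Tsc2-null and 10.02, 10.05 and 9.98 in Tsc1-null cells, against 10.65, 10.70 and 10.68 in wild-type cells, with differences of -0.80 ± 0.08 and -0.65 ± 0.08 (SE, adjusted p = 2.32e-08 and 5.25e-07). Bop1, the core of the PeBoW complex, was 9.92, 9.98 and 9.92 in Tsc1-null cells against 10.75, 10.58 and 10.65 in wild-type cells (-0.72 ± 0.06 SE, adjusted p = 1.69e-09), while its partner Pes1 did not differ past the test in either line.

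The 4 abundant nucleolar proteins gave 3 calls in the Tsc2-null and 3 in the Tsc1-null line, all lower. Beside them, 21.3% and 20.8% of all genes were lower. Ncl, which encodes nucleolin, was 12.46, 12.37 and 12.27 in Tsc2-null and 11.95, 11.84 and 11.81 in Tsc1-null cells, against 12.59, 12.61 and 12.62 in wild-type cells. The lines were again ordered without overlap, Tsc1-null lowest, at -0.24 ± 0.07 (SE, adjusted p = 0.00539) and -0.74 ± 0.07 (SE, adjusted p = 4.83e-09) from wild type. Npm1 was 13.32, 13.21 and 13.20 in Tsc2-null and 12.98, 12.84 and 12.86 in Tsc1-null cells, against 13.34, 13.48 and 13.44 in wild-type cells, and on this probe set only the Tsc1-null difference passed the test (-0.18 ± 0.07 SE, adjusted p = 0.0508 and -0.53 ± 0.07 (SE, adjusted p = 1.97e-06)). Another, about equally bright probe set of Npm1 was called lower in Tsc2-null cells (-0.28, adjusted p = 0.000462). Without Tsc2-null replicate 1 or wild-type replicate 1 the Tsc2-null difference of Npm1 passed too, at -0.22 each. Ddx21, a helicase linking polymerase I transcription and RNA processing, averaged 9.26 ± 0.03 in the Tsc2-null and 9.10 ± 0.01 in the Tsc1-null line, against 9.80 ± 0.08 in wild-type cells (SD, n = 3 each). Gnl3, which encodes the GTP-binding protein nucleostemin, averaged 10.07 ± 0.07 in Tsc2-null cells against 10.36 ± 0.02 in wild-type cells (-0.29 ± 0.07 SE, adjusted p = 0.00234).

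Set against each other under vehicle, the Tsc1-null line had 15 ribosome biogenesis genes below and 3 above the Tsc2-null line, beside 22.7% and 20.7% of all genes. The largest differences were those of Nop58 (-0.94 ± 0.08 SE, adjusted p = 6.36e-10), Rrp12 (-0.94 ± 0.11 SE, adjusted p = 1.07e-07) and Nolc1, given above. The members higher in Tsc1-null cells were Nle1 (0.64 ± 0.08 SE, adjusted p = 8.37e-07), Ubtf (0.29 ± 0.07) and Bysl (0.26 ± 0.08).

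**Figure D2:**
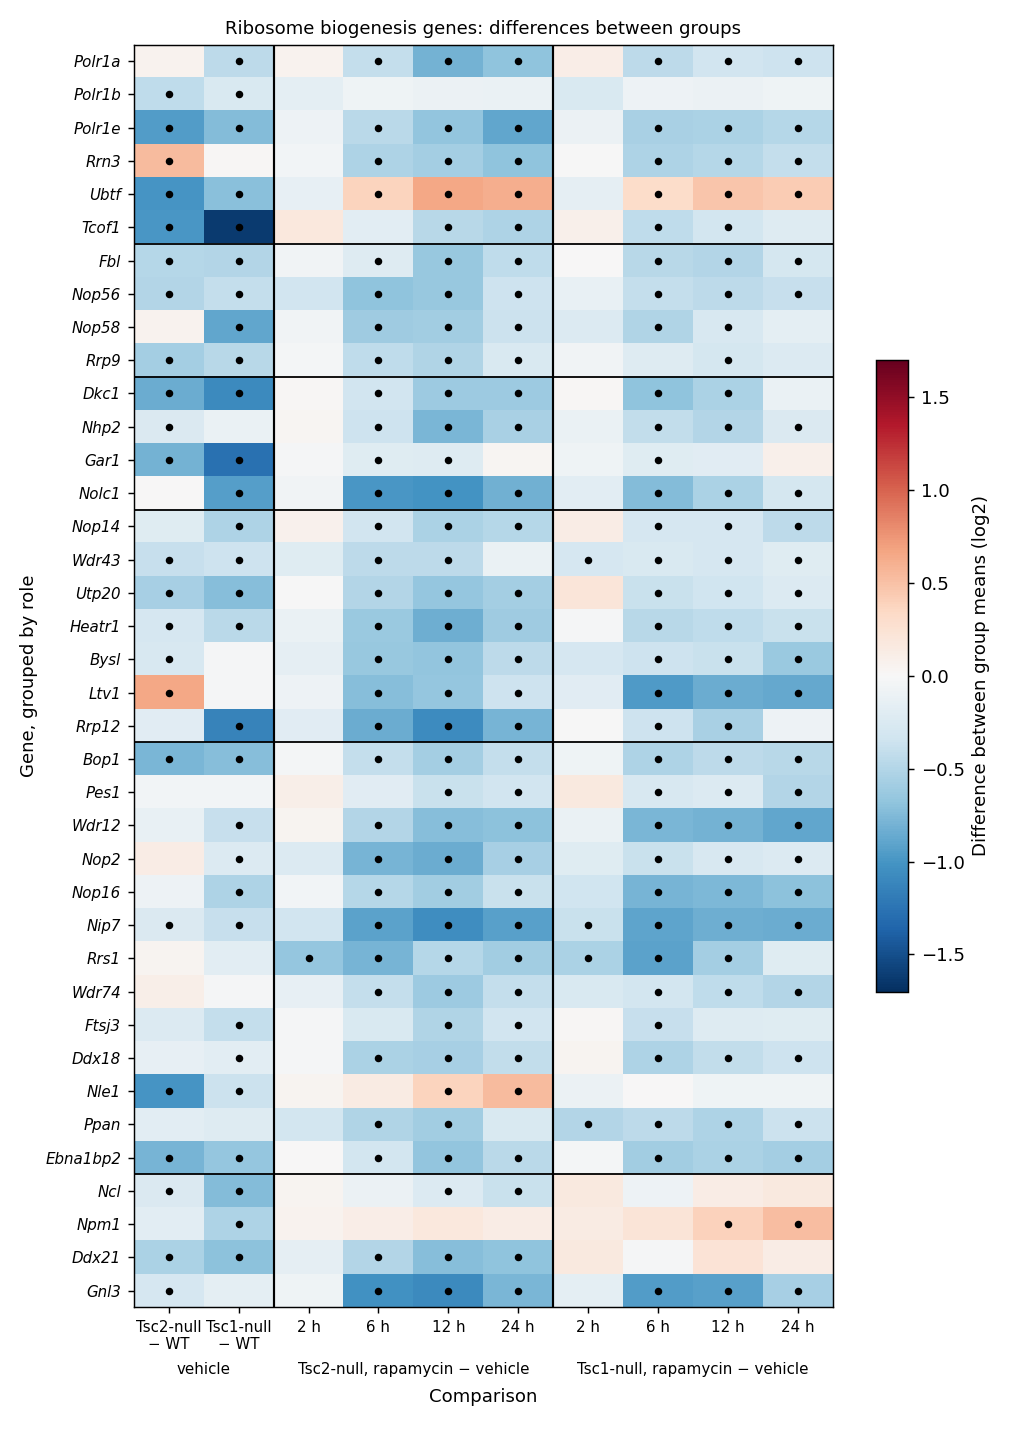
Differences between group means (colour, log2) of 38 ribosome biogenesis genes (rows, grouped by role with black lines) for each null line minus wild type under vehicle and for rapamycin minus vehicle at 2, 6, 12 and 24 h in the Tsc2-null and the Tsc1-null line, with a dot where the adjusted p of limma is below 0.05. Most cells from 6 h on are blue with a dot, and Ubtf is red in both lines.

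The rapamycin series asks which transcripts change under rapamycin in cells without the TSC complex, and when. The ribosome biogenesis genes fell in both null lines, and most did so between 2 h and 6 h. In Tsc2-null cells 1 of 38 was lower and 0 higher at 2 h (beside 1.19% and 1.01% of all genes), and lower were 30 at 6 h (9.69%), 34 at 12 h (17.6%) and 31 at 24 h (18.1%). In Tsc1-null cells 4 were lower and 0 higher at 2 h (beside 1.32% and 1.95% of all genes), and lower were 31 at 6 h (13.0%) and 30 at 12 h (11.7%). At 24 h in this line 24 were lower and 2 higher, 26 called in all, where 29.6% of all genes were called. Without Tsc1-null rapamycin 6 h replicate 2 the count called at 6 h in that line was 21, against 32 with all arrays. The Tsc2-null count called at 6 h was 22 to 30 without single arrays, against 31 with all. The 2 h counts were 0 without rapamycin replicate 1 in the Tsc2-null line or either rapamycin array in the Tsc1-null line. The median member differed from vehicle by -0.05, -0.45, -0.60 and -0.44 at 2, 6, 12 and 24 h in the Tsc2-null line, and by -0.08, -0.43, -0.42 and -0.30 in the Tsc1-null line. The median of all genes stayed between -0.06 and 0.06 in these comparisons. The times of a line share its vehicle arrays, so they are not independent of each other.

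Called higher at 6, 12 and 24 h were 1, 2 and 2 members in the Tsc2-null line (11.6%, 16.4% and 17.4% of all genes), and 1 and 2 at 6 and 12 h in the Tsc1-null line (9.50% and 12.0%). A fall at all of 6, 12 and 24 h was called for 27 members in the Tsc2-null line (7.71% of all genes) and for 24 in the Tsc1-null line (8.10%), and 21 members fell at these 3 times in both (4.45%). Differences from vehicle were largest at 12 h for 28 members in Tsc2-null cells and at 6 h for 20 members in Tsc1-null cells. Over the 4 times together, limma's F test called 36 members in the Tsc2-null line (39.9% of all genes) and 35 in the Tsc1-null line (38.1%).

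Rrs1, which brings the 5S particle into the large subunit, was called at 2 h in both lines. In Tsc2-null cells its levels were 10.50, 10.36 and 10.29 under vehicle, 9.56 and 9.89 at 2 h, 9.72 and 9.47 at 6 h, 10.03 and 9.76 at 12 h and 9.56 and 10.03 at 24 h. In Tsc1-null cells they were 10.16, 9.95 and 10.38 under vehicle, 9.59 and 9.66 at 2 h, 9.22 and 9.28 at 6 h, 9.53 and 9.64 at 12 h and 9.87 and 10.05 at 24 h. Every array from 2 to 12 h lay below every vehicle array of its line, the replicates of the Tsc2-null line were wide apart, and at 24 h the Tsc1-null arrays overlapped vehicle. The 2 h differences were -0.66 ± 0.13 (SE, adjusted p = 0.00775) in the Tsc2-null and -0.54 ± 0.13 (SE, adjusted p = 0.0256) in the Tsc1-null line. The Tsc2-null call at 2 h was lost without rapamycin replicate 1 (-0.50, adjusted p = 0.207), and the 12 h call without rapamycin replicate 2 (-0.36, adjusted p = 0.132). The Tsc1-null call at 2 h was lost without any array of its groups but vehicle replicate 2, with differences of -0.43 to -0.58. At 24 h the Tsc2-null difference was -0.59 ± 0.13 (SE, adjusted p = 0.00116), and it was lost without rapamycin replicate 1 (-0.35, adjusted p = 0.0926).

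Nip7, which acts in early large subunit processing, was among the deepest falls of both lines. Its Tsc2-null levels were 10.35, 10.40 and 10.46 under vehicle, 10.01 and 10.16 at 2 h, 9.61 and 9.38 at 6 h, 9.44 and 9.27 at 12 h and 9.44 and 9.52 at 24 h. Its Tsc1-null levels were 10.16, 10.28 and 10.34 under vehicle, 9.88 and 9.90 at 2 h, 9.38 and 9.34 at 6 h, 9.38 and 9.47 at 12 h and 9.29 and 9.55 at 24 h. No rapamycin array of either line reached its vehicle arrays, and from 6 h on the levels of both lines ran together. The difference was -1.05 ± 0.09 (SE, adjusted p = 7.61e-09) at 12 h in Tsc2-null cells and -0.90 ± 0.09 (SE, adjusted p = 3.8e-07) at 6 h in Tsc1-null cells. At 2 h it was called in Tsc1-null cells (-0.37 ± 0.09 SE, adjusted p = 0.0232), a call lost without either rapamycin array or vehicle replicate 2 or 3 (-0.33 to -0.39), and not in Tsc2-null cells (-0.32 ± 0.09 SE, adjusted p = 0.0743). The other Tsc1-null calls at 2 h were Ppan, a large subunit factor (-0.49 ± 0.10 SE, adjusted p = 0.00865), and Wdr43, a processome protein (-0.28 ± 0.07 SE, adjusted p = 0.0278). Each of these was lost without either rapamycin array, with adjusted p between 0.0684 and 0.38, and Wdr43 also without vehicle replicate 1 or 2.

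Gnl3 was not called at 2 h (-0.08 ± 0.08 SE, adjusted p = 0.918 in the Tsc2-null and -0.17 ± 0.08 (SE, adjusted p = 0.352) in the Tsc1-null line) and had fallen by 6 h. Tsc2-null cells held 10.01, 10.05 and 10.14 under vehicle, 9.91 and 10.07 at 2 h, 9.08 and 9.0 at 6 h, 9.0 and 8.98 at 12 h and 9.34 and 9.25 at 24 h. Tsc1-null cells held 10.10, 10.13 and 10.33 under vehicle, 10.03 and 10.01 at 2 h, 9.22 and 9.26 at 6 h, 9.24 and 9.30 at 12 h and 9.49 and 9.74 at 24 h. The 6 h and 12 h arrays were lowest in both lines and apart from all others, with differences at 12 h of -1.08 ± 0.08 (SE, adjusted p = 1.46e-09) and -0.92 ± 0.08 (SE, adjusted p = 2.83e-08). By 24 h Gnl3 was higher than at 12 h in the Tsc2-null (0.31 ± 0.09 SE, adjusted p = 0.0445) and the Tsc1-null line (0.35 ± 0.09 SE, adjusted p = 0.0233).

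Ubtf was higher than under vehicle where most members were lower. Its Tsc2-null levels were 9.0, 9.02 and 9.04 under vehicle, 8.99 and 8.77 at 2 h, 9.37 and 9.42 at 6 h, 9.74 and 9.62 at 12 h and 9.73 and 9.54 at 24 h. Its Tsc1-null levels were 9.28, 9.33 and 9.34 under vehicle, 9.14 and 9.19 at 2 h, 9.59 and 9.66 at 6 h, 9.70 and 9.87 at 12 h and 9.72 and 9.77 at 24 h. At 2 h all arrays of both lines were a little below vehicle, and from 6 h all were above it, with 12 h differences of 0.66 ± 0.08 (SE, adjusted p = 6.62e-07) and 0.47 ± 0.08 (SE, adjusted p = 8.93e-05). Still, every rapamycin array of both lines was below the wild-type arrays of 10.05, 10.01 and 10.01. The 6 h call in Tsc1-null cells was lost without rapamycin replicate 2 (0.27, adjusted p = 0.0916). The dimmer probe set of Ubtf gave 0.81 in the Tsc2-null and 0.48 in the Tsc1-null line at 24 h, both called.

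Npm1 rose in the Tsc1-null line, in which its vehicle arrays of 12.98, 12.84 and 12.86 were followed by 12.96 and 13.11 at 2 h, 13.18 and 13.05 at 6 h, 13.24 and 13.33 at 12 h and 13.46 and 13.37 at 24 h. The 12 h and 24 h arrays lay above all vehicle arrays, by 0.39 ± 0.08 (SE, adjusted p = 0.000844) and 0.52 ± 0.08 (SE, adjusted p = 2.35e-05). In Tsc2-null cells the levels were 13.32, 13.21 and 13.20 under vehicle, 13.24 and 13.36 at 2 h, 13.35 and 13.37 at 6 h, 13.49 and 13.35 at 12 h and 13.31 and 13.43 at 24 h, and none of the differences passed the test. At 24 h all Npm1 arrays of both null lines but 1 Tsc2-null array lay within the range of the wild-type arrays.

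Ddx21 fell in the Tsc2-null line. Its Tsc2-null levels were 9.30, 9.24 and 9.25 under vehicle, 9.07 and 9.15 at 2 h, 8.85 and 8.68 at 6 h, 8.47 and 8.63 at 12 h and 8.76 and 8.40 at 24 h, and in Tsc1-null cells they were 9.11, 9.10 and 9.10 under vehicle, 9.14 and 9.39 at 2 h, 9.10 and 9.07 at 6 h, 9.34 and 9.34 at 12 h and 8.95 and 9.50 at 24 h. All Tsc2-null rapamycin arrays were below vehicle, whereas those of the Tsc1-null line lay around or above it apart from replicate 1 at 24 h. The difference at 12 h was -0.72 ± 0.12 (SE, adjusted p = 5.2e-05) in the Tsc2-null and 0.24 ± 0.12 (SE, adjusted p = 0.185) in the Tsc1-null line. The 6 h call in Tsc2-null cells (-0.49 ± 0.12) was lost without rapamycin replicate 2 (-0.41, adjusted p = 0.0732). Polr1b was the member that passed no rapamycin comparison in either line, with differences between -0.26 and -0.07.

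**Figure D3:**
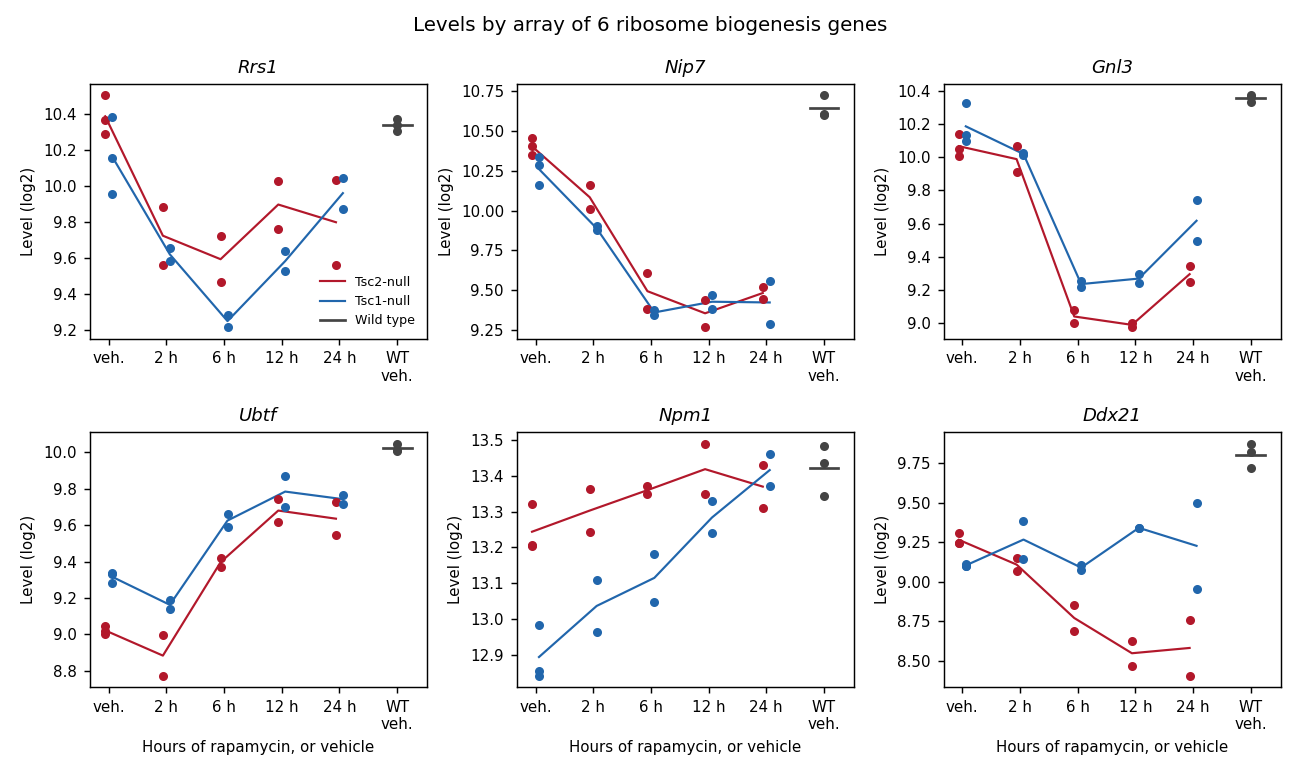
Level by array (y axis, log2) of Rrs1, Nip7, Gnl3, Ubtf, Npm1 and Ddx21 in the Tsc2-null line (red) and the Tsc1-null line (blue) under vehicle and after 2, 6, 12 and 24 h of rapamycin, and in wild-type vehicle cells (grey). Points are arrays, and lines and bars join or mark group means. Rrs1, Nip7 and Gnl3 are lowest at 6 h or 12 h, Ubtf is above vehicle from 6 h in both lines, Npm1 rises in Tsc1-null cells and Ddx21 falls in Tsc2-null cells.

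At 24 h in Tsc2-null cells, 4 of 6 polymerase I genes and 4 of 4 box C/D genes were lower than under vehicle. So were 3 of 4 box H/ACA genes, 6 of 7 small subunit genes and 11 of 13 large subunit genes. The same held for 3 of 4 abundant nucleolar proteins, and for 18.1% of all genes. Polr1e was 6.30 and 6.53 after rapamycin, against 7.16, 7.27 and 7.47 under vehicle, and Polr1a, the largest polymerase subunit, 8.66 and 8.40 against 9.20, 9.32 and 9.13. Neither pair of groups overlapped, and the differences were -0.89 ± 0.12 (SE, adjusted p = 2.17e-06) and -0.68 ± 0.09 (SE, adjusted p = 3.62e-06). Rrn3, which had stood above wild type under vehicle, was 8.42 and 8.50 after rapamycin against 9.11, 9.14 and 9.16 under vehicle (-0.68 ± 0.08 SE, adjusted p = 3.23e-07), just below the wild-type arrays. Ubtf rose, as given above.

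Among the RNA modification genes of the Tsc2-null line, Nolc1 was 9.38 and 9.29 at 24 h of rapamycin against 10.16, 10.20 and 10.11 under vehicle (-0.82 ± 0.10 SE, adjusted p = 1.01e-06). Dkc1 was 9.57 and 9.43 against 10.19, 10.07 and 10.09, 1.53-fold lower (adjusted p = 1.45e-05), Fbl 10.78 and 10.82 against 11.27, 11.22 and 11.21, and Nop58 10.24 and 10.10 against 10.48, 10.52 and 10.59. Rapamycin arrays were below vehicle arrays for each of these genes, and Gar1, at 9.73 and 9.82 against 9.79, 9.76 and 9.68, stood out as overlapping. Of the small subunit genes, Rrp12 was 6.74 and 6.79 after rapamycin against 7.68, 7.44 and 7.56 under vehicle, and Heatr1, an early processome protein, 8.23 and 8.30 against 8.83, 8.88 and 8.87. The differences were -0.79 ± 0.12 (SE, adjusted p = 9.56e-06) and -0.60 ± 0.08 (SE, adjusted p = 1.84e-06), again without overlap.

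Of the large subunit genes in the Tsc2-null line at 24 h, Nip7 differed from vehicle by -0.92 ± 0.09 (SE, adjusted p = 2.98e-08). Wdr12, the third PeBoW protein, was 8.25 and 8.09 after rapamycin against 8.88, 8.79 and 8.96 under vehicle, 1.63-fold lower (adjusted p = 1.88e-05). Nle1 was the large subunit gene that rose, to 8.48 and 8.29 after rapamycin against 7.89, 7.83 and 7.83 under vehicle (0.53 ± 0.09 SE, adjusted p = 6.06e-05), with all rapamycin arrays above vehicle and below wild type. Gnl3, Ddx21 and Ncl all fell, and Ncl was 11.95 and 12.03 after rapamycin against 12.46, 12.37 and 12.27 under vehicle (-0.38 ± 0.08 SE, adjusted p = 0.000353). The 24 h calls of Ftsj3, Nop56, Rrp9 and Rrs1 in this line were lost without 1 or more single arrays, with differences between -0.19 and -0.35.

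At 24 h in Tsc1-null cells, 3 of 6 polymerase I, 2 of 4 box C/D and 2 of 4 box H/ACA genes were lower. So were 6 of 7 small subunit genes, 10 of 13 large subunit genes and 1 of 4 abundant nucleolar proteins. Of all genes, 29.6% were called in either direction. Polr1e was 7.02 and 7.05 after rapamycin, against 7.43, 7.53 and 7.59 under vehicle (-0.48 ± 0.12 SE, adjusted p = 0.00279), and Rrn3 was 8.17 and 8.26 against 8.69, 8.61 and 8.55 (-0.40 ± 0.08 SE, adjusted p = 0.000352). Both fell without overlap, while Ubtf rose. On the deposited ratio table the Rrn3 difference was 0.21 (adjusted p = 0.346).

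The deepest falls at 24 h in this line were in the assembly genes, that of Nip7 (-0.84) among them. Wdr12 was 7.58 and 7.86 after rapamycin against 8.53, 8.58 and 8.72 under vehicle, Ltv1 8.46 and 8.68 against 9.37, 9.42 and 9.53, and Bysl 9.02 and 9.11 against 9.68, 9.68 and 9.74. None of these groups overlapped, with differences of -0.89 ± 0.11 (SE, adjusted p = 1.48e-06) for Wdr12, -0.87 ± 0.10 (SE, adjusted p = 3.3e-07) for Ltv1 and -0.64 ± 0.08 (SE, adjusted p = 3.41e-06) for Bysl. Fbl was 10.85 and 10.97 against 11.18, 11.26 and 11.20, 1.23-fold lower (adjusted p = 0.00149), a call not made on the deposited ratio table (0.085, adjusted p = 0.724). Nolc1 was 8.66 and 9.17 after rapamycin against 9.23, 9.24 and 9.18 under vehicle, Nhp2, a core H/ACA protein, 11.21 and 11.35 against 11.45, 11.57 and 11.56, and Nop56 9.46 and 9.81 against 9.90, 10.03 and 10.14. In each of these the first rapamycin array was the lower one and the second lay near vehicle, and the calls of all 3 were lost without rapamycin replicate 1 (-0.05, -0.17 and -0.22). The Nolc1 call was also lost without vehicle replicate 1 or 2, and the Nhp2 call without vehicle replicate 2.

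The median member stood at 9.06 in rapamycin replicate 1 and 9.25 in replicate 2. Without replicate 1 the number of members called at 24 h in Tsc1-null cells was 18, against 26 with all arrays, and the calls of Nop14, Nop2, Polr1a, Ppan, Utp20 and Wdr43 were lost too, whereas Ddx21 became higher (0.40, adjusted p = 0.0186).

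**Figure D4:**
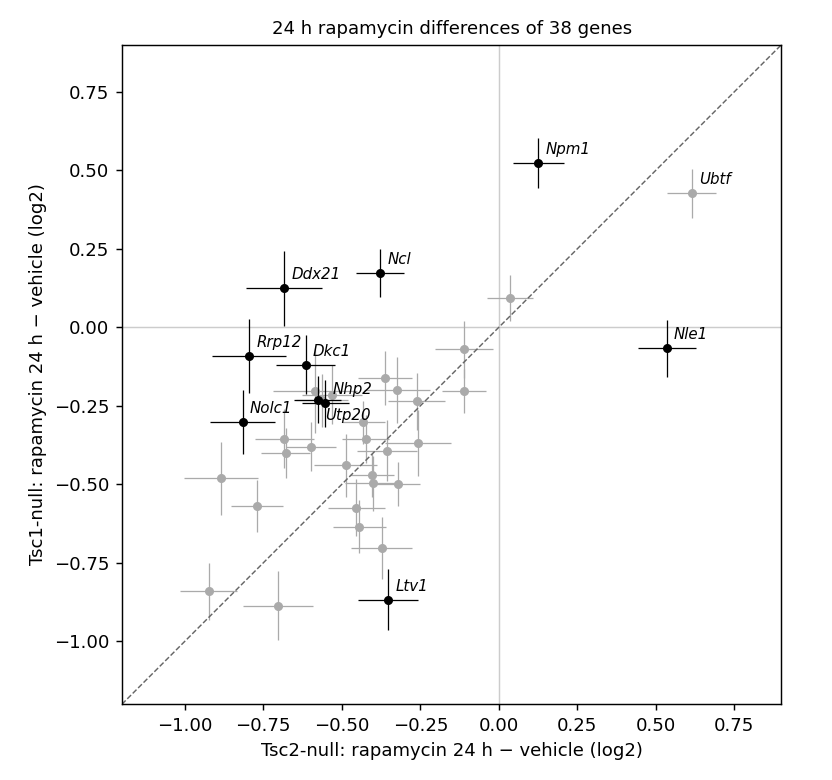
Difference between 24 h of rapamycin and vehicle (log2, with the SE of limma's fit) for 38 ribosome biogenesis genes in the Tsc2-null line (x axis) and the Tsc1-null line (y axis). Black points are the 10 genes whose difference was not equal between the lines by the interaction test, the dashed line marks equal differences, and most genes lie below 0 on both axes.

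Whether rapamycin moved a gene differently in the lines at 24 h was tested as an interaction, written as the Tsc1-null minus the Tsc2-null difference. It was called positive for 8 and negative for 2 of 38 members, beside 8.13% and 12.0% of all genes. For Ddx21 it was 0.81 ± 0.17 (SE, adjusted p = 0.00127), for Rrp12 0.70 ± 0.17 (SE, adjusted p = 0.00371) and for Ncl 0.55 ± 0.11 (SE, adjusted p = 0.000673): each was lower after rapamycin in Tsc2-null cells, and in Tsc1-null cells the differences from vehicle were 0.12, -0.09 and 0.17, none of them called. Rrp12 had been called lower in Tsc1-null cells at 6 h and 12 h (-0.55 at 12 h), whereas Ddx21 and Ncl were called at no single time there. Over the 4 times together, limma's F test called Ncl in Tsc1-null cells (adjusted p = 0.0471) and not Ddx21 (adjusted p = 0.342). Ncl stood at 12.02 and 12.06 in Tsc1-null cells after 24 h of rapamycin, against 11.95, 11.84 and 11.81 under vehicle. Nle1, with -0.60 ± 0.13 (SE, adjusted p = 0.00166), rose in Tsc2-null cells and stood at 8.31 and 8.53 after rapamycin against 8.43, 8.58 and 8.46 under vehicle in Tsc1-null cells. These 4 interactions held without any single array of the 4 groups, whereas on the deposited ratio table that of Nle1 was 0.35 (adjusted p = 0.488). The Tsc1-null side of this test rests on the plates whose descriptions give 14 h. Ltv1 (-0.51 ± 0.14 SE, adjusted p = 0.00878) fell in both lines and further in the Tsc1-null one, a call lost without Tsc1-null rapamycin replicate 1 (-0.40, adjusted p = 0.0736). Nolc1 (0.51 ± 0.14 SE, adjusted p = 0.0132), Dkc1 (0.50 ± 0.13 SE, adjusted p = 0.00945), Npm1 (0.40 ± 0.11 SE, adjusted p = 0.015), Utp20 (0.35 ± 0.11 SE, adjusted p = 0.0239) and Nhp2 (0.31 ± 0.11 SE, adjusted p = 0.0403) were each lost without 1 or more single arrays, with values between 0.24 and 0.47.

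The same interaction was positive and called for 15 of 15 proliferation genes, beside 8.13% of all genes. Of these genes, which mark DNA replication and mitosis, 15 were lower at 24 h of rapamycin in Tsc2-null cells (median -1.42), beside 18.1% of all genes. In Tsc1-null cells 8 were higher and 3 lower (median 0.30), where 29.6% of all genes were called in either direction. The part of the proliferation genes in the differences of the ribosome biogenesis genes was not tested. At 6 h, when most members had fallen, 3 of the 15 were higher and 6 lower in Tsc2-null cells (11.6% and 9.69% of all genes). In Tsc1-null cells 2 were higher and 6 lower at that time (9.50% and 13.0%). Under vehicle 11 were higher and 1 lower in Tsc2-null cells than in wild type (23.6% and 21.3% of all genes), and 11 were lower in Tsc1-null cells (20.8%).

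From 12 h to 24 h few members were called. In the Tsc2-null line 2 were higher at 24 h than at 12 h (2.68% of all genes) and 0 lower (4.30%), namely Gnl3 and Wdr43 (0.33 ± 0.08 SE, adjusted p = 0.00988). In the Tsc1-null line 4 were higher (1.42%) and 1 lower (5.23%), the higher ones being Dkc1 (0.42 ± 0.10 SE, adjusted p = 0.0161), Gnl3, Rrp12 and Gar1, and the lower one Pes1. The median member differed by 0.18 between these times in the Tsc2-null line, against 0.04 for all genes, and by 0.06 against -0.01 in the Tsc1-null line. The Tsc2-null count of 2 was 13 with quantile normalization, and 6 to 7 with 64 added, dim genes left out, trended moderation or the mean of probe sets. Single arrays also decided these small counts, which fell to 0 without Tsc2-null rapamycin 24 h replicate 1 or 12 h replicate 2, and without replicate 2 of either time in the Tsc1-null line. Compared with 2 h, 27 members were lower and 2 higher at 24 h in Tsc2-null cells (16.6% and 15.8% of all genes), and 18 lower and 2 higher in Tsc1-null cells (15.5% and 8.81%).

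After 24 h of rapamycin the median member stood farther below wild-type vehicle cells than under vehicle in both null lines. Of 38 members, 35 were lower and 1 higher in rapamycin-treated Tsc2-null cells than in wild type (20.8% and 20.8% of all genes), and 37 were lower and 0 higher in Tsc1-null cells (21.7% and 16.8%). The medians were -0.71 and -0.77, beside -0.02 for all genes in each. The exceptions were Ltv1, still higher in Tsc2-null cells (0.30 ± 0.10 SE, adjusted p = 0.0153), Rrn3 in Tsc2-null cells (-0.14 ± 0.08 SE, adjusted p = 0.19) and Npm1 in both (-0.05 ± 0.08 in the Tsc2-null and 0.00 ± 0.08 in the Tsc1-null line, adjusted p = 0.689 and 0.977).

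A further 124 genes of the same pathway, from lists of polymerase I, snoRNP, small subunit, large subunit and exosome factors, were counted beside the members. At 24 h of rapamycin 64 were lower and 15 higher in Tsc2-null cells (median -0.25), beside 18.1% and 17.4% of all genes. In Tsc1-null cells 62 were lower and 8 higher (median -0.23), 70 called in all, where 29.6% of all genes were called. At 6 h, 59 were lower and 13 higher in the Tsc2-null line (9.69% and 11.6% of all genes). In the Tsc1-null line 65 were lower and 3 higher at that time (13.0% and 9.50%). The other small subunit genes gave 30 lower of 46 at 24 h in Tsc2-null cells and 25 in Tsc1-null cells, and the other large subunit genes 20 and 24 of 43. The other 12 polymerase I genes had 1 lower and 4 higher in Tsc2-null and 1 lower and 3 higher in Tsc1-null cells. Among them Znrd1, a small polymerase I subunit, averaged 9.98 after rapamycin against 8.57 under vehicle in Tsc2-null cells (1.41 ± 0.12 SE, adjusted p = 3.01e-09), and Taf1d, a subunit of the selectivity factor, 9.18 against 8.16 in Tsc1-null cells (1.02 ± 0.10 SE, adjusted p = 4.13e-08).

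The exosome genes, whose products trim the precursor RNA from its 3′ ends, gave 9 lower of 13 at 24 h in the Tsc2-null and 8 in the Tsc1-null line. Of all genes 18.1% were lower in the Tsc2-null line, and 29.6% were called in either direction in the Tsc1-null line. Exosc8, a core subunit, averaged 9.44 after 24 h of rapamycin against 10.68 under vehicle in Tsc2-null cells (-1.24 ± 0.10 SE, adjusted p = 1.53e-09). Mphosph6, a cofactor, differed by -1.05 ± 0.10 (SE, adjusted p = 1.99e-08) in Tsc2-null and by -0.88 ± 0.10 (SE, adjusted p = 4.92e-07) in Tsc1-null cells. Las1l, which takes part in cutting the internal spacer, rose in Tsc2-null cells (0.91 ± 0.10 SE, adjusted p = 2.92e-07), Nop53, an adaptor of the exosome, rose in Tsc1-null cells (0.74 ± 0.07 SE, adjusted p = 1.64e-08), and Shq1, a Dkc1 chaperone, fell there (-0.88 ± 0.12 SE, adjusted p = 2.91e-06).

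Under vehicle 57 of the 124 genes were lower and 23 higher in Tsc2-null than in wild-type cells (median -0.17), beside 21.3% and 23.6% of all genes. In Tsc1-null cells 67 were lower and 16 higher (median -0.27), beside 20.8% and 21.3%. Tma16, a factor bound to the large subunit, averaged 7.45 in the Tsc2-null and 10.40 in the Tsc1-null line, against 9.60 in wild-type cells, with differences of -2.15 ± 0.10 (SE, adjusted p = 6.05e-14) and 0.80 ± 0.10 (SE, adjusted p = 9.23e-07) that point in opposite directions. Znrd1 was also lower in Tsc2-null cells (-1.50 ± 0.11 SE, adjusted p = 6.29e-11), and Ngdn (0.98 ± 0.08 SE, adjusted p = 8.21e-10) and Ddx55 (0.77 ± 0.09 SE, adjusted p = 1.41e-07) were higher. In Tsc1-null cells Znhit6, needed for box C/D assembly, was lower (-1.59 ± 0.08 SE, adjusted p = 1.19e-13), as was Urb2 (-1.40 ± 0.09 SE, adjusted p = 2e-11), and Naf1, needed for H/ACA assembly, was higher (0.71 ± 0.11 SE, adjusted p = 1.06e-05).

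Myc encodes a transcription factor known to drive many ribosome biogenesis genes. Its own mRNA was lower in both null lines than in wild type under vehicle, and higher under rapamycin than under vehicle. It was 8.30, 8.27 and 8.29 in Tsc2-null and 9.37, 9.43 and 9.40 in Tsc1-null vehicle cells, against 10.84, 10.84 and 10.88 in wild-type cells, 5.91-fold and 2.74-fold lower (adjusted p = 5.81e-17 and 1.53e-12). Under rapamycin the Tsc2-null arrays were 9.23 and 9.23 at 2 h, 8.97 and 8.95 at 6 h, 9.08 and 9.0 at 12 h and 9.07 and 8.81 at 24 h, and the Tsc1-null arrays 10.09 and 10.15 at 2 h, 10.12 and 9.99 at 6 h, 10.16 and 10.13 at 12 h and 10.30 and 10.73 at 24 h. All rapamycin arrays of both lines were above their vehicle and below wild type. Myc was called higher at each of the 4 times in both lines. The arrays read its mRNA and not its protein, and the part of Myc in the differences of the members was not tested.

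Of the 38 members, 23 had more than 1 probe set. Of those called on the brightest probe set at 24 h of rapamycin, another probe set was called the same way for 16 of 21 in Tsc2-null and 10 of 18 in Tsc1-null cells, and none was called in the opposite direction. All probe sets of Ncl but the dimmest gave an interaction of the same sign, with 0.55, 0.79, 0.61 and 0.67 in order of brightness, each called.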

How the data were processed

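Messenger RNA of 25 plates was hybridised to Affymetrix mouse genome arrays, 1 array per plate. The deposited values are log2 expression per probe set, computed by the authors with RMA, per the submitters' processing notes. A second deposited table holds log2 ratios and served only as an alternative. Samples were grouped by line, treatment and time from their labels, and for the 12 h and 24 h Tsc1-null plates, whose descriptions give 11 h and 14 h, the titles' times were used. Of 45101 probe sets, 34945 named 1 gene, 932 several and 9160 none, and 64 were controls. Each of 18193 genes was read from its probe set with the highest mean. limma 3.58.1 in R 4.3.3 was fitted to 11 group means, with contrasts between them, moderated variances and Benjamini-Hochberg adjustment over all genes at 0.05, and was tested on simulated data. Members and lists were chosen with earlier results of these data known. Array-by-array values are given for Ncl, Npm1, Fbl, Polr1b, Rrn3 and Ubtf, for the 2 members per role with the largest differences, among those called without overlap, in each null line against wild type and at 24 h of rapamycin, and, chosen after their values were seen, for members named at other points. Pathway genes outside the members were named by the 2 largest rises and falls, among those called without overlap, in the same comparisons. Alternatives were another normalization, centring, an added constant, a filter on dim genes, the mean of all probe sets, other moderation, separate fits, a replicate block, the ratio table and leaving out each array.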

Additional observations from a re-analysis of the deposited data

Results flagged for a closer look

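For 10 ribosome biogenesis genes the 24 h rapamycin difference was not equal in the lines, by limma's interaction test (Tsc1-null minus Tsc2-null, Benjamini-Hochberg over all genes). The interaction was called positive for 8 and negative for 2 of 38 members, beside 8.13% and 12.0% of all genes. It was 0.81 for Ddx21, 0.70 for Rrp12, 0.55 for Ncl, 0.51 for Nolc1, 0.50 for Dkc1, 0.40 for Npm1, 0.35 for Utp20 and 0.31 for Nhp2, with adjusted p between 0.000673 and 0.0403. It was -0.60 for Nle1 (adjusted p = 0.00166) and -0.51 for Ltv1 (adjusted p = 0.00878). The calls of Nolc1, Dkc1, Npm1, Utp20, Nhp2 and Ltv1 were each lost without 1 or more single arrays. On the deposited ratio table the value of Nle1 was 0.35. The Tsc1-null side rests on plates whose descriptions give 14 h.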

How the results depend on the processing

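Counts of called members against wild type, between the null lines, at 12 h and at 24 h stayed within 1.5 times under every alternative run. At 2 h the Tsc2-null count of 1 became 3 with quantile normalization, the mean of all probe sets or trended robust moderation, 2 with 64 added or the dimmest 40% of genes left out, 4 on the deposited ratio table and 0 to 1 without single arrays. The Tsc1-null count of 4 became 8 with quantile normalization, 1 with the groups compared alone and 0 to 2 without single arrays. At 6 h the Tsc1-null count of 32 became 20 on the ratio table and 21 to 30 without single arrays. The Tsc2-null count of 31 at that time became 22 to 30 without single arrays. From 12 h to 24 h the Tsc2-null count of 2 became 13 with quantile normalization, 1 with centred arrays, 6 with 64 added, with dim genes left out or with trended moderation, 7 with the mean of probe sets, 0 alone, 4 on the ratio table and 0 to 2 without single arrays. The Tsc1-null count of 5 became 0 alone and 0 to 3 without single arrays. From 2 h to 24 h in Tsc1-null cells, 20 became 13 with the mean of probe sets. The causes were not tested.

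Correlations of deviations were -0.40 to 0.55 (median -0.06) for same-numbered plates and -0.55 to 0.40 (median 0.03) for other plates. In a group of 2 arrays the deviations mirror each other, so these values cannot decide whether the numbers pair samples. With a replicate block the Tsc1-null count at 2 h was 1, and the others stayed within 1.5 times. Turned directions were counted only where a member was called in the main fit or the alternative. They were sought between lines under vehicle, for rapamycin against vehicle and for the interaction. Those counted were all on the ratio table. In Tsc1-null cells against wild type Bysl became 0.34 and Rrn3 -0.37. At 24 h in Tsc1-null cells Fbl became 0.085, Nle1 0.63 and Rrn3 0.21, and the Nle1 interaction became 0.35. The number of arrays, 2 per rapamycin group, limits what can be called.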
